A study of Homo sapiens with 3 samples.

Results

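Tubulins are the building blocks of microtubules, and the 10 genes described here encode 4 of the alpha and 6 of the beta isotypes of the human family. They were taken by name, as every probe set whose only annotated gene symbol is TUBA1A, TUBA1B, TUBA1C, TUBA4A, TUBB, TUBB2A, TUBB2B, TUBB3, TUBB4B or TUBB6. The family was chosen on the measured levels of TUBA1A, which lay below control in one arm and above it in the other, so the values of TUBA1A are a description with no test. Of 49293 probe sets, 21 met the rule, and these gave a level for 8 of the 10 genes, among 18132 genes with a probe set of their own. TUBA1B and TUBB2B had none, since their probe sets are annotated together with another gene. By the endings of their names, 12 of the 21 probe sets (_x_at) may also match other transcripts and 6 (_s_at) are shared by several transcripts, of the same gene or of others. All 8 measured isotypes lay above the filter on dim genes, a cut at the median probe set mean (log2 signal 5.28) that kept 10917 genes.

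The cells were KYSE180, an established line of human oesophageal squamous cell carcinoma, and gene expression was read on 3 oligonucleotide arrays. The first group received a vector (LZRS_HOTAIR) carrying the long non-coding RNA HOTAIR with the reagent Polyfect, the next received a mixture of siRNAs against HOTAIR (100 pmol) with Lipofectamine2000, and both were collected after 48 h. The last group is labelled only as control, and its label names neither a reagent nor a negative-control siRNA. The source name of the siRNA sample refers to a HOTAIR cell line, while its title and cell line field name KYSE180. Besides the direction of the HOTAIR manipulation, the reagent and the type of molecule delivered were thus not the same in the arms. With 1 array per group there was no replicate check, no test was made and no p-value is given. In such bulk samples fewer cells expressing a gene and less RNA per cell cannot be told apart.

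Alpha- and beta-tubulin pair into heterodimers that polymerise into microtubules, the hollow filaments of the spindle, of cilia and of intracellular transport. The isotypes are encoded by separate genes, differ mainly in their acidic C-terminal tails and are expressed in different mixtures between tissues. TUBA1A, TUBB2B and TUBB3 are best known from neurons, whereas TUBA1B, TUBA1C, TUBB and TUBB4B are expressed in most dividing cells. Cells also adjust tubulin mRNA to the pool of free dimers, since TTC5 recognises nascent tubulin on the ribosome and brings about decay of its mRNA through SCAPER and the CCR4-NOT deadenylase.

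The control array stood apart from the other arrays. Over the genes kept, the SD of the log2 differences was 0.92 for vector minus control and 0.84 for siRNA minus control, against 0.45 for vector minus siRNA. A difference from control is therefore given below beside the comparison between the arms, which leaves the control array out. The one error that could be measured was how far probe sets of the same gene lay apart. Its SD was 0.21 (log2) for vector minus siRNA, 0.36 for vector minus control and 0.39 for siRNA minus control over 5982 genes. Variation between cultures and between arrays is not part of this spread, and no difference past or within it was tested. Of 10 squamous markers 6 had a probe set of their own and all 6 were above the filter. Their median log2 signals were 11.29 in vector, 11.39 in siRNA and 10.83 in control cells, and the markers went both ways: the basal keratin gene KRT14 was below control (-1.16 in vector and -0.37 in siRNA cells), as were KRT5 and PKP1, while the desmosomal cadherin genes DSG3 (0.67 and 0.87) and DSC3 (0.40 and 0.92) and the transcription factor gene SOX2 (0.25 and 0.25) were above it. Fibroblast and endothelial markers had 0 of 6 and 0 of 4 members above the filter, leukocyte markers 1 of 4 (CD68) and neuronal markers 4 of 10. Median neuronal log2 signals were 4.90 in vector, 4.76 in siRNA and 5.34 in control cells. The 4 neuronal markers above the filter were all below control in both arms, with the neurofilament gene NEFL the furthest (-1.94 in vector and -0.80 in siRNA cells), but between the arms NEFL (-1.14) and GAP43 (-0.43) were lower in vector cells and SYP (0.18) and SNAP25 (0.060) were not. Of the neuronal markers below the filter, SYT1 was above control (1.16 in vector and 0.62 in siRNA cells), while most were below it in both arms. The part of cell identity in the tubulin values was not tested.

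The upstream sequences of 4 members are shown. TUBA1A, TUBA4A and TUBB2A are the 3 isotypes at least 2-fold away from control in the vector arm. TUBB4B was 1.28-fold lower there on its brightest probe set, while TUBA1C, not shown, lay nearer to control (1.13-fold lower). Each sequence shown is the 250 bases before the listed transcription start, from RefSeq on GRCh38.p14, 5′ to 3′ on the strand of the gene. All 10 members matched the table, some with several starts, which gave 15 windows. Capitals mark a TATA element (TATAAA or TATATA, on the strand of the gene), a CCAAT box (CCAAT on either strand), a GC box (GGGCGG on either strand) or a cAMP response element (TGACGTCA), motifs that were picked after the sequences had been seen.
TUBA1A, chr12:49189081-49189330, minus strand: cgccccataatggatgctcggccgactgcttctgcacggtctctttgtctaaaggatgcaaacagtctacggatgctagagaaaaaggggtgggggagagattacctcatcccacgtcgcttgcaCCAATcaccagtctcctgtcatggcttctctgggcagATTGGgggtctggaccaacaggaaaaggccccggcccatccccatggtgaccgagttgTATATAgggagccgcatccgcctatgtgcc
TUBA4A, chr2:219253919-219254168, minus strand: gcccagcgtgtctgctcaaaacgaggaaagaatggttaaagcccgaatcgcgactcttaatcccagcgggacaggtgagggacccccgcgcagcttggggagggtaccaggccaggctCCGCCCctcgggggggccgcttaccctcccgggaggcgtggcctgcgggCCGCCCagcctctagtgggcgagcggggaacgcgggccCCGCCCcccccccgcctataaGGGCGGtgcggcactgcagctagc
TUBB2A, chr6:3157545-3157794, minus strand: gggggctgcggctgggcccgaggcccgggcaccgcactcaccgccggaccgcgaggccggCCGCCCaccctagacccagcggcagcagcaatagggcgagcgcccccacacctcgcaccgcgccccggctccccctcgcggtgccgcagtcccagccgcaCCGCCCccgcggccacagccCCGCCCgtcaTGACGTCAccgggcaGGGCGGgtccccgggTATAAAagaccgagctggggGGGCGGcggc
TUBB4B, chr9:137241037-137241286, plus strand: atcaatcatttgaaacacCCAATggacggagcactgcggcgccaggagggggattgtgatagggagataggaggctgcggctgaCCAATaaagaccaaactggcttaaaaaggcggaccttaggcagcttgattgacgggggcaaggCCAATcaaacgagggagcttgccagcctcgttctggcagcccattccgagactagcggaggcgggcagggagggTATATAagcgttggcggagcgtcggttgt

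The TUBA1A window held a TATA element 30 bases before the start, 2 CCAAT boxes and 0 GC boxes, with a GC content of 56.4%. The TUBB4B window was alike in these letters, with a TATA element at 29 bases, 3 CCAAT boxes, 0 GC boxes and a GC content of 56.8%. TUBA4A had 4 GC boxes and neither a TATA element nor a CCAAT box at a GC content of 70.8%, and TUBB2A had 5 GC boxes, a TATA element at 30 bases and the only cAMP response element among the members' windows, 60 bases before the start, at 79.2%. Over all 35116 windows of this length in the table, 9.51% held a TATA element, 32.0% a CCAAT box, 42.6% a GC box and 1.65% the cAMP response element. The windows shown are only part of the members' 15, so no share over the members can be read from them. A TUBA1C window, not shown, also held a TATA element, at 33 bases, and 1 CCAAT box. That window had 2 GC boxes and a GC content of 70.8%. A match is a description of the letters, and a link between these motifs and the measured values was not tested.

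TUBA1A, the alpha-tubulin gene best known from developing neurons, was the isotype that separated the arms. Its brighter probe set had log2 signals of 7.64 in vector cells, 10.65 in siRNA cells and 9.74 in control cells. Its other probe set had 6.91 in vector, 10.07 in siRNA and 9.05 in control cells. On both probe sets vector cells were lowest, siRNA cells highest and control cells in the middle. By the brighter probe set TUBA1A was 8.09-fold lower in vector than in siRNA cells (log2 -3.02), 4.28-fold below control in vector cells (-2.10) and 1.89-fold above control in siRNA cells (0.92).

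The probe sets of TUBA1A lay close together, at -3.02 and -3.16 for vector minus siRNA, -2.10 and -2.13 for vector minus control and 0.92 and 1.03 for siRNA minus control. Their SDs, 0.10, 0.024 and 0.076, were below those over all genes. The siRNA difference lay just under 2-fold on the brighter probe set and just over it on the other. TUBA1A, which was chosen on its measured levels, ranked 8th from the lowest of 10917 genes for vector minus siRNA and 14th for vector minus control. Both of its probe sets end in _x_at, so TUBA1A had no value once such probe sets were left out.

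Probe sets annotated to TUBA1A and TUBA1B together gave another picture. One had log2 signals of 13.17 in vector, 13.18 in siRNA and 13.38 in control cells, and the other had 13.32, 13.44 and 13.46 in the same order. These lay near the top of the signal range and differed between the arms by -0.011 and -0.11, within the spread between probe sets. No value can be given to TUBA1B alone, since its share of these signals was not separated.

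TUBA1C, which lies beside TUBA1A and TUBA1B in the alpha-tubulin cluster of chromosome 12 and encodes a broadly expressed isotype, stayed close to control. Its brighter probe set had log2 signals of 12.58 in vector, 12.69 in siRNA and 12.76 in control cells, and its other probe set 11.84, 12.03 and 12.33 in the same order. TUBA1C thus differed by -0.10 for vector minus siRNA, -0.18 for vector minus control and -0.072 for siRNA minus control on its brighter probe set, each within the spread between probe sets, while the other gave -0.49 for vector minus control. The signs of both differences from control turned when the median of all genes was subtracted (0.0076 and 0.097).

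TUBA4A, an alpha-tubulin gene that encodes the isotype without the C-terminal tyrosine, was lower in both arms to the same extent. Its brighter probe set had log2 signals of 11.55 in vector, 11.59 in siRNA and 12.63 in control cells. The control array was highest and the arms lay within 0.036 of each other. TUBA4A was 2.10-fold lower in vector cells (log2 -1.07) and 2.05-fold lower in siRNA cells (-1.04) than in control cells, and its other probe set gave -1.06 and -1.05. In siRNA cells the difference was below 2-fold after repeated quantile normalization (-0.96), cyclic loess (-0.98) and centring on the median of all genes (-0.87), and in vector cells after centring (-0.89).

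**Figure D1:**
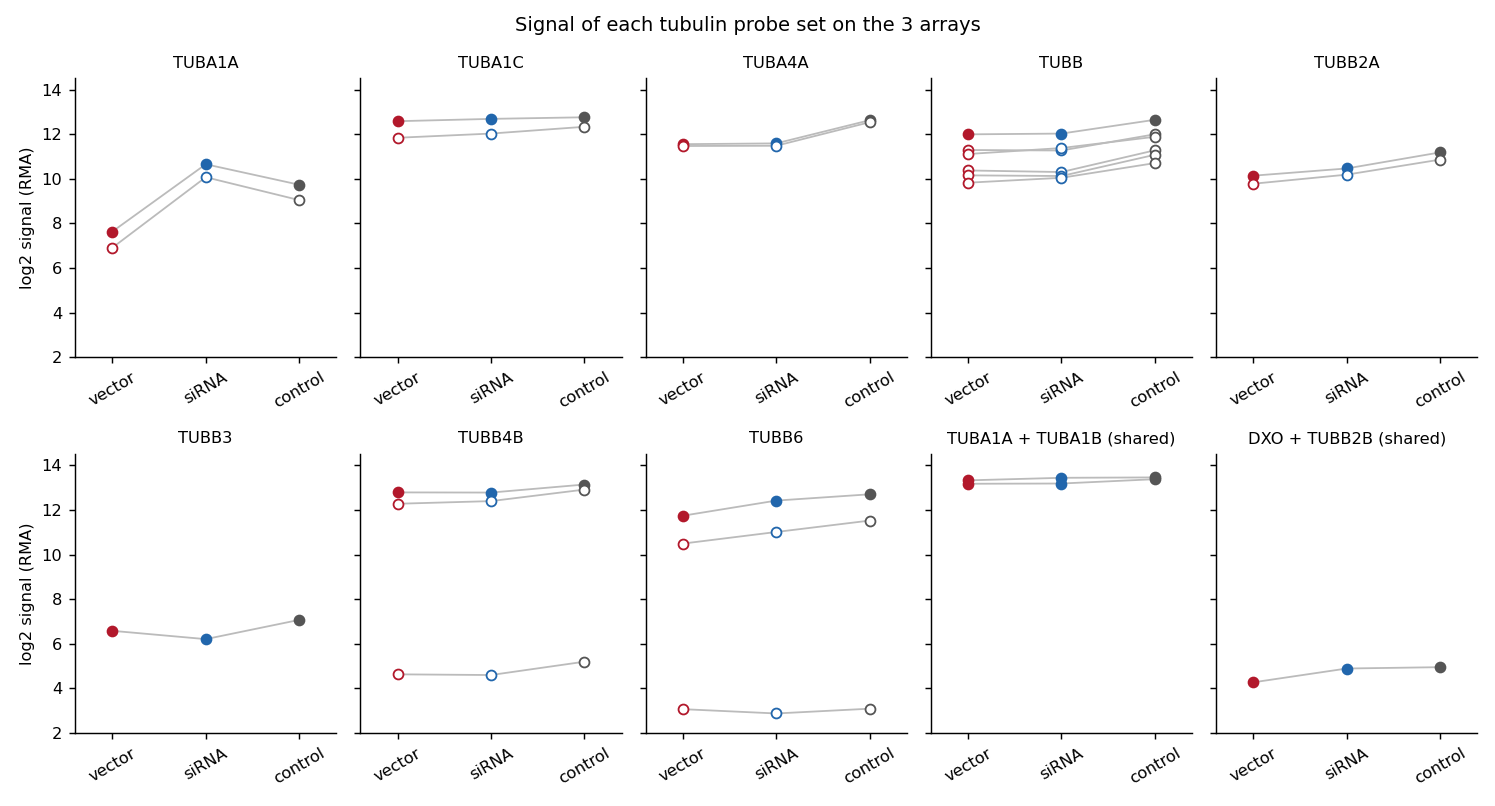
Log2 signal (vertical axis) on the vector (red), siRNA (blue) and control (grey) arrays for each tubulin probe set, with lines joining the 3 values of one probe set, filled points for the brightest probe set of a gene and open points for the others. Both TUBA1A probe sets were lowest in vector and highest in siRNA cells, while the shared TUBA1A and TUBA1B probe sets stayed between 13.17 and 13.46.

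Among the beta-tubulin genes, none reached 2-fold between the arms, and all 5 with a probe set of their own were below control in both. TUBB, which encodes the main beta isotype of dividing cells, had log2 signals of 11.99 in vector, 12.03 in siRNA and 12.65 in control cells on its brightest probe set. Its 6 probe sets ran from -0.92 to -0.65 for vector minus control and from -0.97 to -0.50 for siRNA minus control. Between the arms they ran from -0.27 to 0.071, with -0.034 on the brightest probe set. The values of -0.27 and -0.22 lay past the SD between probe sets (0.21). TUBB4B, expressed in most tissues and in ciliated cells, had 12.78 in vector, 12.78 in siRNA and 13.14 in control cells. It was 1.28-fold below control in each arm, a difference of -0.35 in vector and -0.36 in siRNA cells that lay within the spread between probe sets, and -0.63 and -0.52 on its other bright probe set.

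TUBB2A, a beta-tubulin gene abundant in the brain and present in many tissues, was lower than control by more in the vector arm. Its brighter probe set had log2 signals of 10.14 in vector, 10.46 in siRNA and 11.18 in control cells. TUBB2A was 2.06-fold below control in vector cells (-1.04, or -1.08 on its other probe set) and 1.65-fold below it in siRNA cells (-0.72, or -0.67). The arms were -0.32 apart. The vector difference fell just short of 2-fold after cyclic loess (-0.999) and after centring (-0.86). TUBB2B, the close neighbour of TUBB2A on chromosome 6, was represented only by a probe set shared with DXO, at 4.27 in vector, 4.89 in siRNA and 4.95 in control cells. That probe set lay below the filter, so no value is given to TUBB2B.

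TUBB6, a divergent beta-tubulin gene, was after TUBA1A the isotype with the largest gap between the arms. Its brightest probe set had log2 signals of 11.74 in vector, 12.42 in siRNA and 12.70 in control cells. The array order was control, siRNA and vector from high to low. TUBB6 was 1.60-fold lower in vector than in siRNA cells (-0.68), 1.94-fold below control in vector cells (-0.96) and 1.22-fold below it in siRNA cells (-0.28). A further bright probe set gave -0.52, -1.03 and -0.51, while a dim one, near 3 on every array, gave 0.19, -0.021 and -0.21.

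TUBB3, the class III beta-tubulin gene used as a neuronal marker, was read on a single probe set, which had log2 signals of 6.58 in vector, 6.21 in siRNA and 7.07 in control cells. It was higher in vector than in siRNA cells by 0.37 (1.29-fold), more than the SD between probe sets, and no other isotype was higher by as much. TUBB3 differed from control by -0.49 in vector cells and by -0.86 in siRNA cells, the second being 1.82-fold lower. With no other probe set of TUBB3, these values have no check within the arrays.

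**Figure D2:**
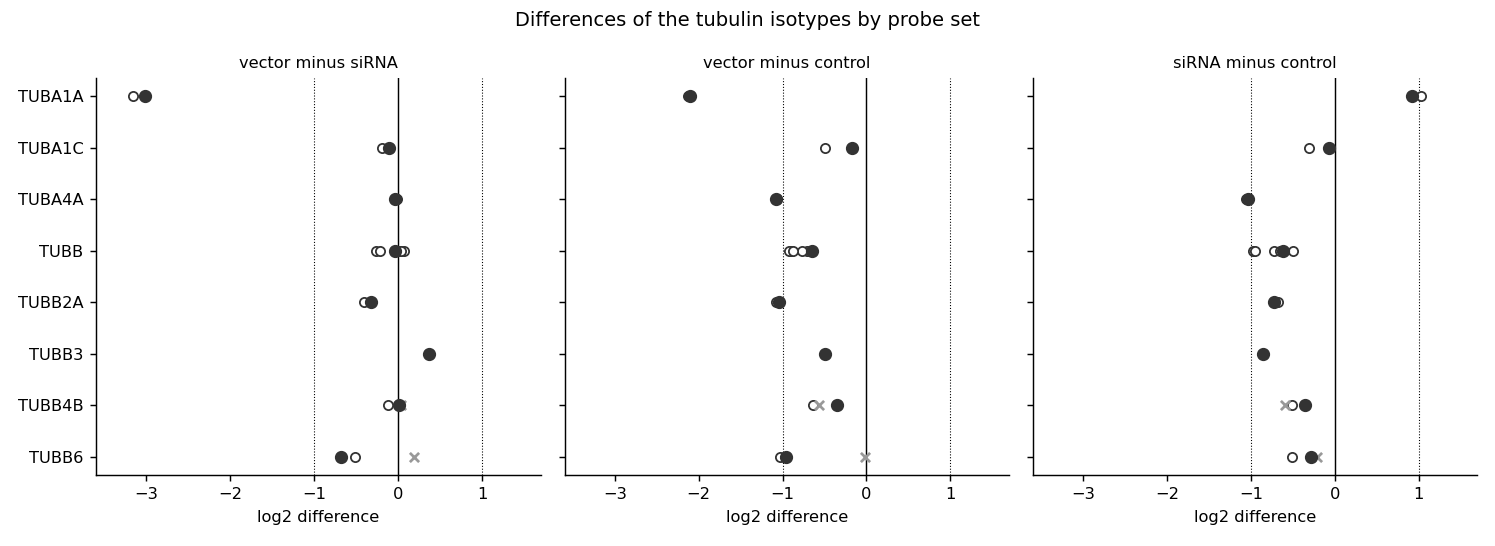
Log2 difference (horizontal axis) of each tubulin probe set in the 3 comparisons, with filled points for the brightest probe set of a gene, open points for other probe sets above the filter, crosses for those below it and dotted lines at 2-fold. TUBA1A lies at -3.02 between the arms and is the only isotype to the right of 0 in siRNA minus control.

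All 8 isotypes lay below control in vector cells and 7 of 8, without TUBA1A, in siRNA cells, beside 59.2% and 58.8% of all genes, though centring turned the sign for TUBA1C. For vector minus siRNA, 1 of the 8 was at least 2-fold lower, TUBA1A, against 1.85% of all genes kept, and 0 were at least 2-fold higher, against 1.73%. The median of the 8 was -0.070, or -0.036 without TUBA1A, against 0.014 over all genes. For vector minus control, 3 of 8 were at least 2-fold lower (TUBA1A, TUBA4A and TUBB2A), against 2.05% of genes, and 0 were 2-fold higher, against 15.2%. For siRNA minus control, 1 of 8 was at least 2-fold lower (TUBA4A), against 1.85%, and 0 were 2-fold higher, against 14.9%. The counts of lower isotypes in vector cells include TUBA1A, on whose levels the family was chosen, and describe that gene without a test.

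At a lower threshold of 1.5-fold, 5 of the 8 isotypes were below control in vector cells, against 19.4% of all genes. They were TUBA4A, TUBB, TUBB2A, TUBB6 and TUBA1A, on which the family was chosen. In siRNA cells 4 of 8 were below control by that fold (TUBA4A, TUBB, TUBB2A and TUBB3), against 18.0%. Median differences were -0.81 in vector and -0.49 in siRNA cells, beside -0.18 and -0.17 over all genes. Without TUBA1A the medians were -0.65 and -0.62, nearly the same in the arms. TUBA1A alone lay above control in siRNA cells, except that centring also put TUBA1C there (0.097). After cyclic loess, which brought the medians of all genes to -0.040 and -0.0087, those of all 8 isotypes were -0.76 and -0.44. The share of genes 1.5-fold lower depended on the brightness cut. Of 8149 genes at least as bright as the dimmest isotype (mean log2 signal 6.62), 17.3% were so in vector and 18.6% in siRNA cells. Of 1755 genes with a mean log2 signal of at least 10, 9.12% were 1.5-fold lower in vector and 11.2% in siRNA cells than in control cells, while of the 6 isotypes at that level 4 and 3 were. The control array was highest for 7 of 8 isotypes and for 53.5% of all genes. TUBA1A alone had the order siRNA, control, vector from high to low, an order that 5.67% of all genes had and on which it was chosen.

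**Figure D3:**
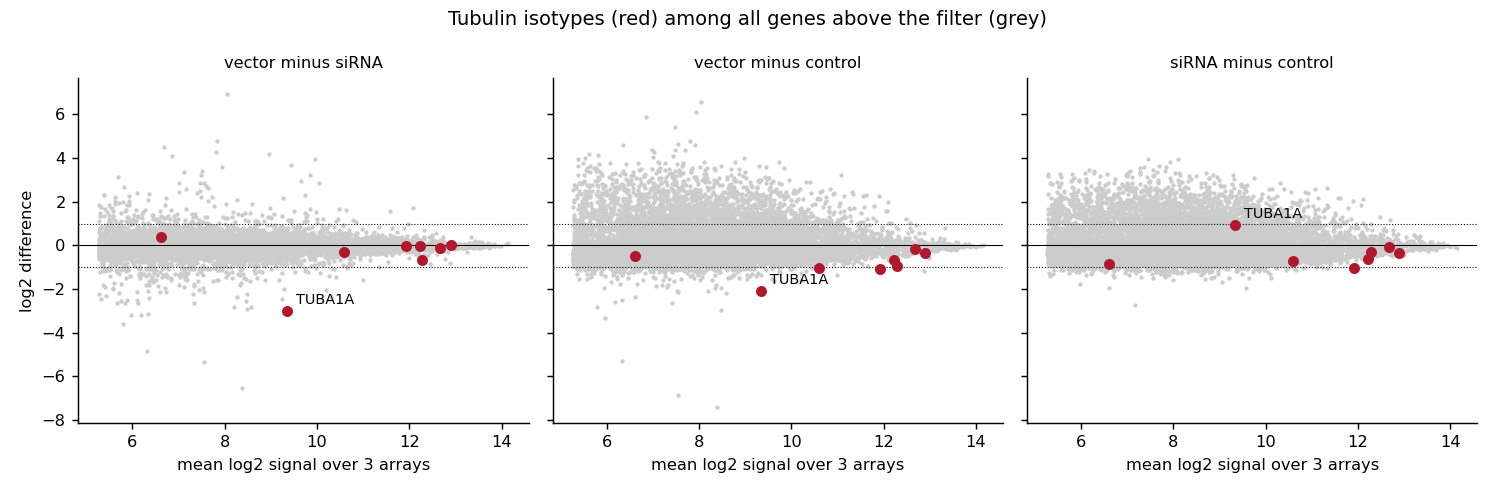
Log2 difference (vertical axis) against mean log2 signal over the 3 arrays (horizontal axis) for the 10917 genes above the filter (grey) and the 8 isotypes (red) in the 3 comparisons, with dotted lines at 2-fold. TUBA1A lies at -3.02 between the arms at a mean signal of 9.34, and 6 isotypes have a mean signal of at least 10.

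The genes whose pair of differences from control lay nearest to that of TUBA1A were sought over the 3 arrays, which gives 2 free values per gene. The 8 nearest were NID1 (Euclidean distance 0.19 on the log2 scale), MRC2 (0.29), POPDC3 (0.31), DACH1 (0.45), SDK2 (0.59), RFLNB (0.63), ELMOD1 (0.63) and CCDC3 (0.67). NID1 encodes the basement membrane protein nidogen-1, MRC2 a collagen-binding endocytic receptor and DACH1 a transcriptional cofactor. NID1 had log2 signals of 6.57 in vector, 9.37 in siRNA and 8.64 in control cells, and POPDC3, a popeye-domain membrane protein gene with a single probe set, had 5.86, 8.51 and 7.65 in the same order. With the mean over probe sets the likeness weakened for MRC2 (-0.83 for vector minus siRNA), NID1 (-1.58), SDK2 (-1.69), RFLNB (-1.38) and ELMOD1 (-1.10), while DACH1 stayed at -2.84. On the vector array DACH1 (4.45), SDK2 (4.27) and ELMOD1 (4.83) had log2 signals below the filter level of 5.28.

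The counts of the 9 lists that follow stand beside the shares over all genes kept: between the arms 1.73% were 2-fold higher and 1.85% lower, so that a count of 0 or 1 in a short list is near the background, and 15.2% were 2-fold above control in vector and 14.9% in siRNA cells. The other tubulins, which include testis-type alpha genes, the brain beta gene TUBB4A and the centrosomal gamma, delta and epsilon tubulins, went apart. Of 8 above the filter 0 were 2-fold apart between the arms, with a median of -0.28, and the furthest apart were TUBB4A (-0.79) and TUBA3D (-0.47). For vector minus control 2 were 2-fold higher and 2 lower. The higher ones were TUBE1 (1.30) and TUBD1 (1.18), which encode the epsilon- and delta-tubulins of centrioles, and they were also 2-fold higher in siRNA cells (1.00 and 1.37). TUBE1 was at 0.86 there after repeated quantile normalization. The lower ones were TUBA3D (-1.22) and TUBA3E (-1.05), near-identical copies read on single _x_at probe sets, and they were at -0.99 and -0.73 after cyclic loess. TUBG1, the gamma-tubulin gene that nucleates microtubules, was at -0.63 in vector and -0.69 in siRNA cells. Genes in this and the next lists that lie outside the rule for named genes were picked after their values were seen.

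The gamma-tubulin ring complex, which nucleates microtubules, had 9 genes above the filter. Between the arms 0 of them were 2-fold apart, the median was -0.021, and MZT1 (0.80) and TUBGCP2 (0.28) differed most. On its second brightest probe set MZT1 was past 2-fold (1.09). MZT1, a small subunit of the complex, had log2 signals of 10.21 in vector, 9.41 in siRNA and 9.83 in control cells. Its differences from control were 0.38 in vector and -0.42 in siRNA cells, but 1.24 and 0.29 in the same order with its probe sets averaged. NEDD1, which brings the complex to the spindle, was the one gene 2-fold above control, at 2.15 in vector and 2.18 in siRNA cells.

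Genes for the folding of tubulin made up 2 lists. Of 7 folding cofactors, which assemble the dimer, 0 differed 2-fold in any comparison, and their medians were 0.072 for vector minus siRNA, -0.49 for vector minus control and -0.52 for siRNA minus control. The most different between the arms were TBCEL (0.24) and TBCB (0.14), and TBCB, which acts on alpha-tubulin, lay at -0.74 in vector and -0.88 in siRNA cells against control. Of 14 genes of the chaperonin CCT and its partner prefoldin, 0 were 2-fold apart between the arms and PFDN4 (0.40) and PFDN2 (0.27) differed most. Only CCT8 was 2-fold above control in vector cells (1.03, or 0.68 with the mean over probe sets).

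Another list holds the genes through which cells adjust tubulin mRNA to the pool of free dimers. TTC5 had log2 signals of 9.17 in vector, 9.14 in siRNA and 9.12 in control cells. Of 11 genes of TTC5 and the CCR4-NOT complex above the filter, 0 were 2-fold apart between the arms, with a median of -0.029, and the most different were CNOT10 (0.25) and CNOT9 (0.19). SCAPER lay below the filter, at 0.80 in vector and 0.99 in siRNA cells against control. Against control the genes went both ways. CNOT6, a deadenylase subunit, was 2-fold higher in siRNA cells (1.06, or 0.93 after repeated quantile normalization and 0.66 without probe sets ending in _x_at or _s_at) and at 0.89 in vector cells, and CNOT6L was at 0.91 in vector and 0.82 in siRNA cells, while CNOT3 was at -0.69 and -0.66 in the same order.

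Enzymes that modify tubulin tails held 2 of the genes that did separate the arms. VASH1 and VASH2 encode the carboxypeptidases that remove the C-terminal tyrosine of alpha-tubulin. VASH1 had log2 signals of 5.46 in vector, 6.73 in siRNA and 6.34 in control cells, and VASH2 had 5.69 in vector, 6.80 in siRNA and 4.76 in control cells. Both were thus 2-fold lower in vector than in siRNA cells (-1.27 and -1.12), and VASH2 was 2-fold above control in siRNA cells (2.04), though with their probe sets averaged these 3 values were -0.58, -0.26 and 0.47. The signals of both were low. Of the 14 genes of this list above the filter, 0 were 2-fold higher in vector than in siRNA cells and the median was 0.058. Only AGTPBP1, a carboxypeptidase that trims glutamates, was 2-fold higher than control in both arms (1.87 and 1.71).

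Proteins that bind, cut or destabilise microtubules made up the last lists. Among 18 lattice-binding proteins and 12 plus-end binding proteins, 0 were 2-fold apart between the arms. The most different were MAP1B (-0.81) and MAP2 (0.47) within the lattice list and DST (-0.36) and CLIP1 (0.30) within the plus-end list. Against control, counts of 2-fold higher genes stand beside 15.2% of all genes in vector and 14.9% in siRNA cells. Of the 18 in the lattice list CKAP2 (1.41), MAP2 (1.23) and EML4 (1.00) were 2-fold above control in vector cells, and CKAP2 (1.21) and EML4 (1.10) in siRNA cells, but with their probe sets averaged MAP2 was at 0.79 and EML4 at 0.15 in vector and 0.29 in siRNA cells. Averaging also left CKAP2 at 0.91 in siRNA cells. Of the 12 in the plus-end list 4 were 2-fold above control in vector cells, CLIP1 (1.89), DST (1.32), CLASP2 (1.19) and SLAIN2 (1.16), and 3 of them in siRNA cells (1.58, 1.68 and 1.11, without SLAIN2). With probe sets averaged CLASP2 was at 0.97 in vector and 0.998 in siRNA cells and SLAIN2 at 0.58 in vector cells. CLIP1 was at 0.53 and 0.34 and SLAIN2 at 0.086 in vector cells without probe sets ending in _x_at or _s_at. Of 12 stathmins, severing enzymes and depolymerising kinesins, KIF18A was 2-fold higher (1.52) and KATNAL1 2-fold lower (-1.13) in vector than in siRNA cells. KIF18A, a kinesin that dampens microtubule growth at kinetochores, had 7.63 in vector, 6.11 in siRNA and 4.94 in control cells on a single probe set. Along with KIF18A, KATNBL1 (2.86 and 2.62), SPAST (1.82 and 1.24) and FIGNL1 (1.43 and 1.45) were 2-fold above control in vector and siRNA cells, but averaging probe sets left KATNBL1 at 1.04 in vector and 0.82 in siRNA cells and SPAST at 0.78 in siRNA cells. KATNAL1, a katanin-like severing enzyme gene, was at 4.84 in vector (below the filter level of 5.28), 5.97 in siRNA and 5.57 in control cells. Its second brightest probe set gave -1.07 between the arms but lay above control by 0.66 in vector and 1.73 in siRNA cells. STMN1, which sequesters tubulin dimers, was at 12.01 in vector, 12.38 in siRNA and 12.26 in control cells.

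**Figure D4:**
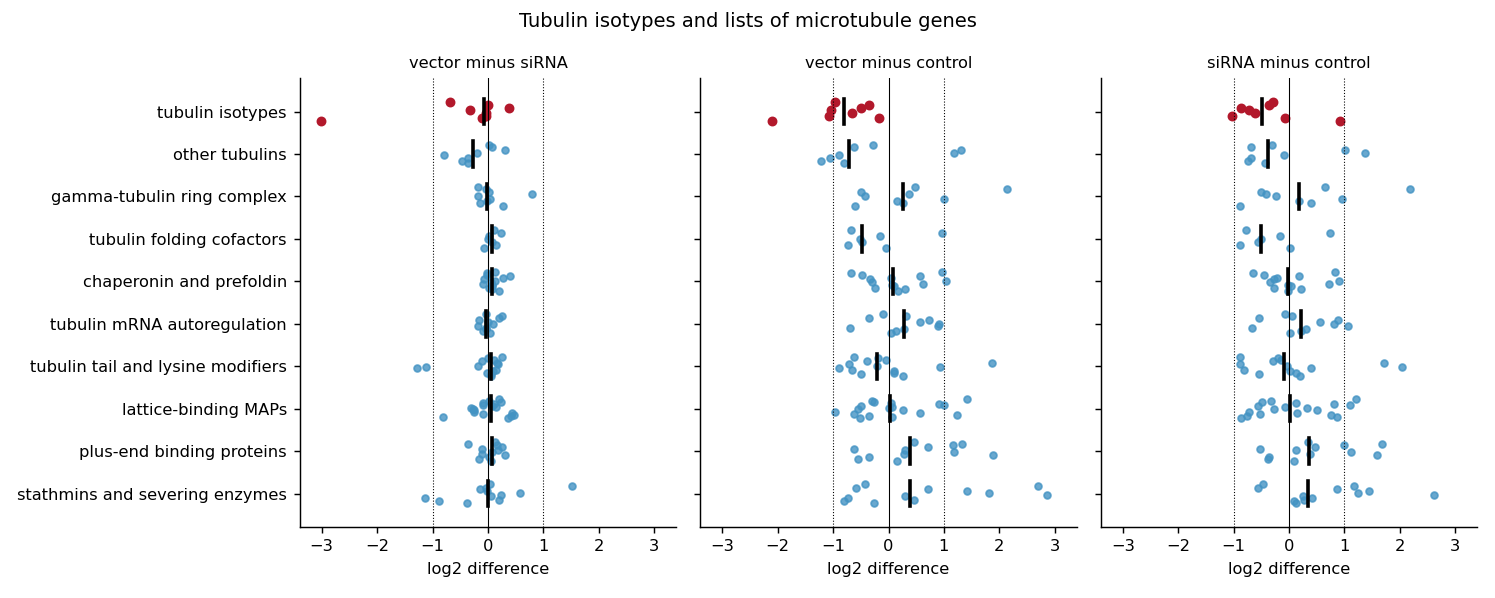
Log2 difference (horizontal axis) in the 3 comparisons for the 8 isotypes (red) and the genes above the filter of 9 lists of microtubule genes (blue), with black bars at list medians and dotted lines at 2-fold. Between the arms TUBA1A lies furthest from 0, at -3.02, while the medians of all lists lie between -0.28 and 0.074.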

How the data were processed

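RNA from KYSE180 cells was biotin-labelled by 3′ in vitro transcription, per the labels' protocols, and hybridised to 1 array per group. The authors deposited RMA signals per probe set, per the submitters' processing notes. That these deposited values are on a log2 scale was read from their range. The sources used here give neither the RMA version nor the chip definition. RMA understates folds of dim genes.

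Symbols came from the platform's annotation table, which gave 1 symbol for 44988 probe sets and several for 1832 and did not list 2473; 44961 were matched by Entrez identifier to RefSeq, with 0 changes of symbol. The brightest probe set over the 3 arrays stood for a gene, and genes at or above the median probe set mean were kept. Differences of log2 signals were counted at 2-fold and 1.5-fold. The number of arrays limits the precision.

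The members and the 9 gene lists (128 genes, 105 above the filter) were chosen with earlier results of these data known. The text names all members, the genes of each list 2-fold apart between the arms or else the 2 most different, and the 8 genes nearest to TUBA1A. Alternatives were the mean over probe sets, repeated quantile normalization, cyclic loess (span 0.4, 3 cycles), centring, leaving out probe sets ending in _x_at or _s_at, other filters and a 1.5-fold threshold; the second brightest probe set was added after seeing the data. The steps were tested on simulated data. Python 3.11.15 with pandas 2.3.3, and limma 3.58.1 for the scalings, were used.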

Additional observations from a re-analysis of the deposited data

How the results depend on the processing

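TUBA1A kept its direction in all 3 comparisons under the 5 alternatives that could give it a value, between -3.16 and -3.03 for vector minus siRNA, -2.27 and -1.91 for vector minus control and 0.82 and 1.09 for siRNA minus control. Without probe sets ending in _x_at or _s_at it had no value, which left 1 isotype above the filter, TUBA4A, and so 0 at least 2-fold lower for vector minus siRNA and 1 for vector minus control. A 1.5-fold threshold counted 2 isotypes lower for vector minus siRNA, 5 lower for vector minus control, and 4 lower and 1 higher for siRNA minus control. Centring left 1 isotype lower for vector minus control, and 0 lower and 1 higher (TUBA1A) for siRNA minus control. For siRNA minus control 0 were lower after repeated quantile normalization or cyclic loess, and 1 was higher with the second brightest probe set (TUBA1A). No isotype that was 2-fold from its comparator changed direction under the alternatives run. TUBB6 for vector minus siRNA moved to -0.33 when its probe sets were averaged and to 0.19 on its dim probe set. No paired analysis was possible because each group has 1 array. Signal near background limits the dim genes, TUBB3 and VASH1 among them.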
